A study of Mus musculus with 52 samples.

Results

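The kallikreins described here are Klk1 and 9 of its Klk1b relatives, Klk1b5, Klk1b8, Klk1b11, Klk1b16, Klk1b21, Klk1b22, Klk1b24, Klk1b26 and Klk1b27. They were found by gene name, and they are 10 of the 34865 genes listed for testes. The set was chosen by the testes levels described below, with earlier results of these data in view, and it leaves out some neighbours of the same family, so the testes values are a description and were not tested. RNA was sequenced after poly(A) selection from the testes of 4 wild-type, 4 Tug1-/- and 3 rescue adult male mice, and from other organs and mouse embryonic fibroblasts (MEFs) of wild-type and Tug1-/- genotype. In Tug1-/- mice a lacZ cassette stands in place of the Tug1 gene body, with the promoter and the first exon kept, on a mixed C57BL/6J and 129S6 background. The labels of Tug1-/- and rescue testes name Neo and LacZ, whereas the methods describe breeding from mice free of the neomycin gene, and whether it is present was not tested. Rescue mice were Tug1-/- as well, and carried a doxycycline-inducible Tug1 transgene from 2 founder lines, which lacks the 5' part of Tug1, together with CAG-rtTA3, which drives the transgene in most cells. Their dams were fed doxycycline from the day of the plug and the offspring stayed on it. The wild-type and Tug1-/- mice are not described as having received doxycycline or CAG-rtTA3, so drug, driver and transgene cannot be told apart in the rescue group.

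All values are the authors' group means in TPM, a unit in which reads are divided by the length of the gene and scaled to the same total in every library, so that levels can be compared between genes. Values of single mice were not used here, so depth per library is unknown, and no order between groups or genes was set against the spread between mice here. A group mean can rest on 1 mouse. By the numbers in their library codes the testes libraries fall into 2 ranges, the higher holding 1 of 4 wild-type, 1 of 4 Tug1-/- and 2 of 3 rescue libraries. What the ranges stand for is not stated, and no value within a range could be had. Tug1 itself was at 40.1 TPM in wild-type, 0.885 TPM in Tug1-/- and 1.60 TPM in rescue testes. The tissue label fits its markers, since Prm1, which packs sperm DNA, was at 14339, 13386 and 13033 TPM in the same order. The testes means also hold genes of the epididymis, the duct beside the testis, at a summed level that differs between the groups and is given with the cell markers.

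Tissue kallikreins are secreted serine proteases. Klk1 is the kallikrein proper, which releases kinin peptides from kininogens, and kinins act on the receptors Bdkrb1 and Bdkrb2. In the mouse the family has grown by tandem duplication into a cluster of Klk1b genes and pseudogenes, best known from the granular ducts of the submandibular gland, where androgens raise many of them. Klk1b22 is known as an EGF-binding protein, Klk1b16 as gamma-renin and Klk1b26 as a prorenin-converting enzyme, while Klk1b21, Klk1b24 and Klk1b27 have been described in Leydig cells, the androgen-producing cells between the seminiferous tubules.

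The 10 genes lie on the plus strand of chromosome 7 (GRCm38), from Klk1b8 at 43950664 to 43954941 to Klk1 at 44225360 to 44229618. Each has 5 exons. In the order of the chromosome they are Klk1b8, Klk1b11, Klk1b26, Klk1b27, Klk1b21, Klk1b22, Klk1b16, Klk1b24, Klk1b5 and Klk1. The coding sequences of the 10 were between 81.4% and 95.1% identical over their 45 pairs, with Klk1 and Klk1b5 the closest pair. Klk1b24 was 93.5% identical to Klk1b27, and Klk1b21 was 92.6% identical to each of these. Only reads with a single best place were counted. Of all windows of a read's length in a member's transcript, at most 5.74% (Klk1) also occurred in the transcript of another gene, and Klk1b22 shared none. Reads with a mismatch can still move between such copies, and this was not tested.

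The promoters are shown because 3 of the 4 genes that stood highest in Tug1-/- testes over wild type carry a stretch that their neighbours lack. RefSeq (GRCm38.p6) gave a start for all 10 members. For Klk1b26, Klk1b16 and Klk1b5 that start lies inside the gene as listed in the tables, so their windows, which enter the counts and medians below, fall within the listed gene. For Klk1b21 that start lies upstream of the listed gene, so its window reaches further from the gene. In the 250 bases before the start, Klk1b27 (chr7:44052040-44052289), Klk1b21 (chr7:44102042-44102291) and Klk1b24 (chr7:44187986-44188235), all on the plus strand, share an identical run of 89 bases, printed in capitals. It was looked for after the expression values had been seen. These genes are also each other's closest relatives in coding sequence, and whether the run has a part in their levels was not tested.
Klk1b27: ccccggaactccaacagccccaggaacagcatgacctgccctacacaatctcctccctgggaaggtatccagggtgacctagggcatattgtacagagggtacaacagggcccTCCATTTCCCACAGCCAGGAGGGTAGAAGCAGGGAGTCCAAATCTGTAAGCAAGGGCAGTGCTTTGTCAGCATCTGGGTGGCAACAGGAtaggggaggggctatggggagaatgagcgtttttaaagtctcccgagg
Klk1b21: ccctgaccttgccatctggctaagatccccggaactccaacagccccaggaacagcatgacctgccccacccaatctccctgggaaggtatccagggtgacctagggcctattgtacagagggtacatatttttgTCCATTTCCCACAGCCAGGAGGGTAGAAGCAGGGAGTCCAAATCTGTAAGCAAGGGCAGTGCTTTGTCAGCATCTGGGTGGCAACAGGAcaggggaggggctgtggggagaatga
Klk1b24: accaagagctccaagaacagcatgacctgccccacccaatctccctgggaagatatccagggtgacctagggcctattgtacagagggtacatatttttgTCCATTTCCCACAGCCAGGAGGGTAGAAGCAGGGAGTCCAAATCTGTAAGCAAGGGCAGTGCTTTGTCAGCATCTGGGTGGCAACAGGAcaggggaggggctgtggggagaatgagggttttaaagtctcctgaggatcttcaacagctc
Of 32851 promoter windows in the mouse genome, 3 hold this run, and these are the ones printed. The longest part of it in any of the other 11 Klk1 and Klk1b windows was 29 bases, in Klk1b1. Klk1b21 and Klk1b24 are identical over 162 bases. The other members share shorter runs, with a median of 25 bases over all 45 pairs of members.

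The fourth of these genes, Klk1b22, has another upstream sequence. It is printed with that of Klk1b8, whose testes level was the highest and nearly the same in all groups (Klk1b22 at chr7:44112423-44112672, Klk1b8 at chr7:43950416-43950665, plus strand). Capitals here mark the bases that differ from the 89-base run in its best alignment.
Klk1b22: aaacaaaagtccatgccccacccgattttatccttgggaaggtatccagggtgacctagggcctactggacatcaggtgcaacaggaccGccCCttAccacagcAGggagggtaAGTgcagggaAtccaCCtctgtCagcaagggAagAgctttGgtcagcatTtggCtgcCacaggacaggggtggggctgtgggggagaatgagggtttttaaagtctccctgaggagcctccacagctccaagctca
Klk1b8: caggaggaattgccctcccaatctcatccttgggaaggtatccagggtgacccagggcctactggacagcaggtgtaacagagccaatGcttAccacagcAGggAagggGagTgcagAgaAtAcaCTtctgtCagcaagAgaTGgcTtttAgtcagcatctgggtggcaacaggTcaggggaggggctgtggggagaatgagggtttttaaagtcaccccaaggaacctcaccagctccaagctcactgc
Klk1b22 matched the run at 70 bases and Klk1b8 at 69. The longest identical run of Klk1b22 was 65 bases, shared with Klk1b9, a relative outside the 10. Thus the upstream sequence of Klk1b22 is closer to that of Klk1b9 than to those of the 3 genes it accompanied in expression.

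Exact matches to short motifs were few. CAAGGTCA, bound by the Leydig cell factor NR5A1, occurred in 2 of the 10 windows and in 1.33% of all promoter windows, on either strand. In both members it lay on the minus strand, 247 bases before the RefSeq start of Klk1b21 and 206 before that of Klk1. The shared run begins 115 bases before the start in Klk1b21, 137 in Klk1b27 and 150 in Klk1b24. The windows of Klk1b27 and Klk1b24 thus do not reach the matching position, which was not searched in them. AGAACA, part of the steroid receptor element, occurred in 1 member (Klk1b24, 237 bases before the start) and in 16.1% of all windows. TATAAA (12.4% of all windows) and TGACGTCA (a CREB site, 1.55%) were in 0 of 10. The motifs do not overlap each other in these windows.

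Klk1b8 dominated the group in testes. Its means were 154.6 TPM in wild-type, 147.6 TPM in Tug1-/- and 143.9 TPM in rescue testes, or 62.6%, 46.7% and 77.6% of the summed TPM of the 10 genes. Klk1b26, the prorenin-converting enzyme, was at 18.4, 18.2 and 16.7 TPM in the same order. These 2 genes, at the upstream side of the cluster, hardly differed between the groups, with log2 ratios between -0.14 and -0.02. Klk1b11 was listed at 0.561, 0.471 and 0.762 TPM, and it was the only member below 1 TPM in all 3 groups.

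**Figure D1:**
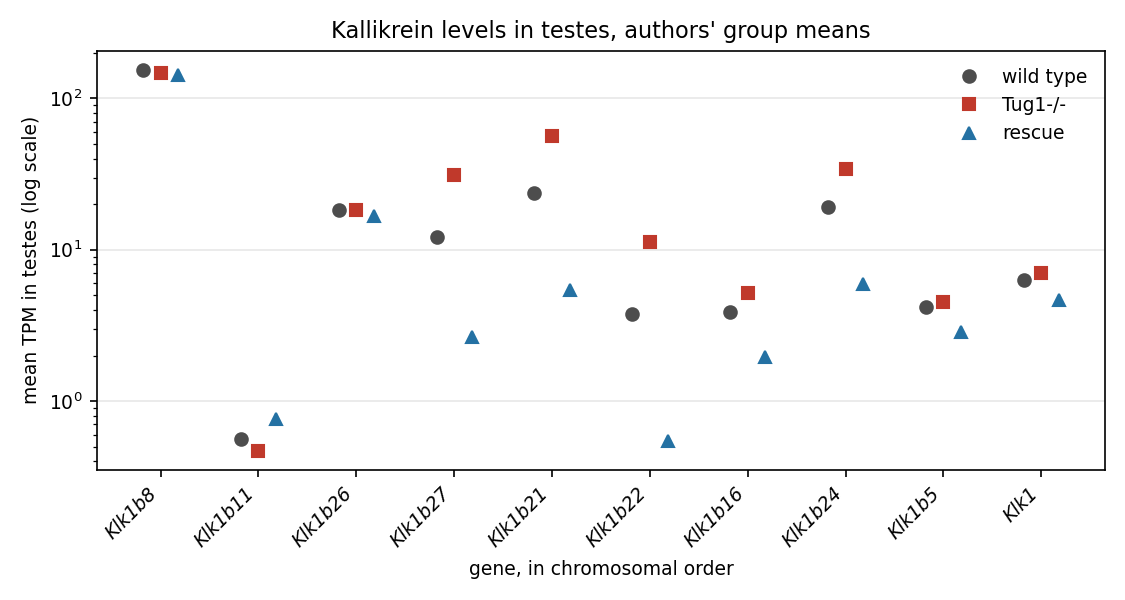
Mean TPM of each of the 10 kallikreins in wild-type (circles), Tug1-/- (squares) and rescue testes (triangles), on a log axis, with the genes in chromosomal order. The points are the authors' group means, without error bars, and Klk1b27, Klk1b21, Klk1b22 and Klk1b24 stand apart in the 3 groups while those of Klk1b8 and Klk1b26 nearly coincide.

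In Tug1-/- testes, 4 members had a mean more than 1.5-fold above wild type, and 0 were below by as much. A gene was counted when the mean TPM plus 0.1 differed by more than 1.5-fold and 1 of the 2 means reached 1 TPM, which 9 members did. By the same rule 2.75% of the 22378 genes at this level were higher. Since the members were chosen with this contrast in view, nothing is read from that difference. Klk1b21 went from 23.8 to 56.4 TPM, a ratio of 2.36. Klk1b27 went from 12.2 to 31.0 TPM, a ratio of 2.53. Klk1b22, the EGF-binding protein, went from 3.79 to 11.3 TPM, a ratio of 2.93 and the 85th highest of all genes counted. Klk1b24 was nearer the limit, at 19.2 and 34.3 TPM in wild-type and Tug1-/- testes, a ratio of 1.78.

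The other 5 members at 1 TPM or more had ratios from 0.955 to 1.33. Klk1b16, gamma-renin, had the largest of them, with 3.85 and 5.15 TPM in wild-type and Tug1-/- testes. Klk1b5 had 4.18 and 4.54 TPM. Klk1 itself had 6.28 and 6.97 TPM, a ratio of 1.11, so that the difference lay with relatives of Klk1 more than with Klk1. The median log2 ratio of the 10 members was 0.28, against 0.03 over the 22669 genes at 1 TPM or more in any testes group.

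In rescue testes the same genes stood far below both other groups. Against Tug1-/- testes, 6 of 9 members had a mean lower by more than 1.5-fold and 0 were higher, and 3.22% of the 22180 genes counted were lower. Klk1b11, under 1 TPM and so not counted, was higher in rescue testes, at 0.762 against 0.471 TPM, a ratio of 1.51. Klk1b22 was at 0.547 TPM in rescue testes, 17.6-fold below Tug1-/-. Klk1b27 was at 2.65 TPM, 11.3-fold below. Klk1b21 was at 5.45 TPM, 10.2-fold below. Klk1b24 was at 5.95 TPM, 5.69-fold below. All 4 had a higher mean in Tug1-/- than in wild-type testes and a lower one in rescue than in wild-type testes. Klk1b16, at 1.96 TPM, was 2.54-fold below Tug1-/- and joined them in this comparison. Klk1b5, at 2.86 TPM and 1.57-fold lower, was just past the limit, and Klk1, at 4.66 TPM and 1.49-fold lower, was just short of it. The median log2 ratio of the 10 members was -0.996, against 0.01 over all genes.

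Rescue testes did not return to the wild-type level of these genes but lay below it. Against wild type, 5 of 9 members were lower by more than 1.5-fold and 0 were higher, and 5.14% of the 22393 genes counted were lower. Klk1b22 was 6.01-fold below wild type, Klk1b27 4.47-fold, Klk1b21 4.31-fold, Klk1b24 3.19-fold and Klk1b16 1.92-fold. Klk1b5 (1.45-fold) and Klk1 (1.34-fold) were lower by less. The comparisons with rescue share the same 3 rescue libraries, and both comparisons with Tug1-/- share the same 4 Tug1-/- libraries, so they are not independent.

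The summed level of the 10 genes was 246.9 TPM in wild-type, 316.0 TPM in Tug1-/- and 185.4 TPM in rescue testes, a ratio of 1.28 for Tug1-/- over wild type and 0.587 for rescue over Tug1-/-. Klk1b8 was the largest single part of each sum. Without it the sums were 92.3, 168.3 and 41.5 TPM, and the ratios 1.82 and 0.247. Klk1b27, Klk1b21, Klk1b22 and Klk1b24 together went from 59.0 TPM in wild-type to 133.0 TPM in Tug1-/- and 14.6 TPM in rescue testes. The 5 other genes whose pair of log2 ratios lay closest to that of the sum of all 10, among 22660 genes and over these 3 group means, were Sult1e1 (42.4, 55.1 and 32.6 TPM), Ugt1a7c, Neurl2, Mir1932 and Ass1, at distances of 0.02 to 0.04 log2 units.

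The genes with the largest differences are neighbours. The stretch from Klk1b27 to Klk1b24, marked out after the values were seen, spans 140.2 kb of the 279 kb cluster and lists 11 genes. Of the 9 at 1 TPM or more in wild-type or Tug1-/- testes, 6 were more than 1.5-fold higher in Tug1-/-. Since the bounds were drawn from these values, the counts are a description. Outside it, 0 of 4 genes on the Klk1b8 side and 0 of 5 on the Klk1 side were. For rescue below Tug1-/- the counts were 7 of 9, 0 of 5 and 1 of 5, the last being Klk1b5. Without Klk1b14-ps and Gm45197, which reach 1 TPM only through the Tug1-/- group, the counts inside it were 4 of 7 and 5 of 7. Klk1b16 lies inside this stretch and was 1.33-fold higher in Tug1-/- testes. Of the flanking genes within 1 Mb on either side of the cluster, 2 of 87 were higher in Tug1-/- than in wild type, 0 lower, and between rescue and Tug1-/- testes 5 of 88 were lower in rescue and 2 higher.

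Pseudogenes between Klk1b27 and Klk1b21, also picked out after their values were seen, were close to 0 in wild-type and rescue testes. Klk1b14-ps was at 0.0393 TPM in wild-type, 3.24 TPM in Tug1-/- and 0.0690 TPM in rescue testes. Gm45197 was listed at 0 in wild-type and rescue testes and at 1.27 TPM in Tug1-/- testes, Gm45026 at 0, 0.829 and 0 TPM, while Klk1b15-ps, at 0, 0.0573 and 0 TPM, was close to 0 in Tug1-/- testes as well. A mean of 0 says that every library of the group was at 0. Gm45026 and Klk1b15-ps do not reach 1 TPM in any group, and Gm45197 lies on the minus strand close upstream of Klk1b14-ps. The other pseudogenes of the stretch, Gm45122 (1.46, 1.36 and 1.47 TPM) and Klk1b23-ps (2.83, 2.14 and 2.12 TPM), lie between Klk1b22 and Klk1b16 and did not share the pattern.

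**Figure D2:**
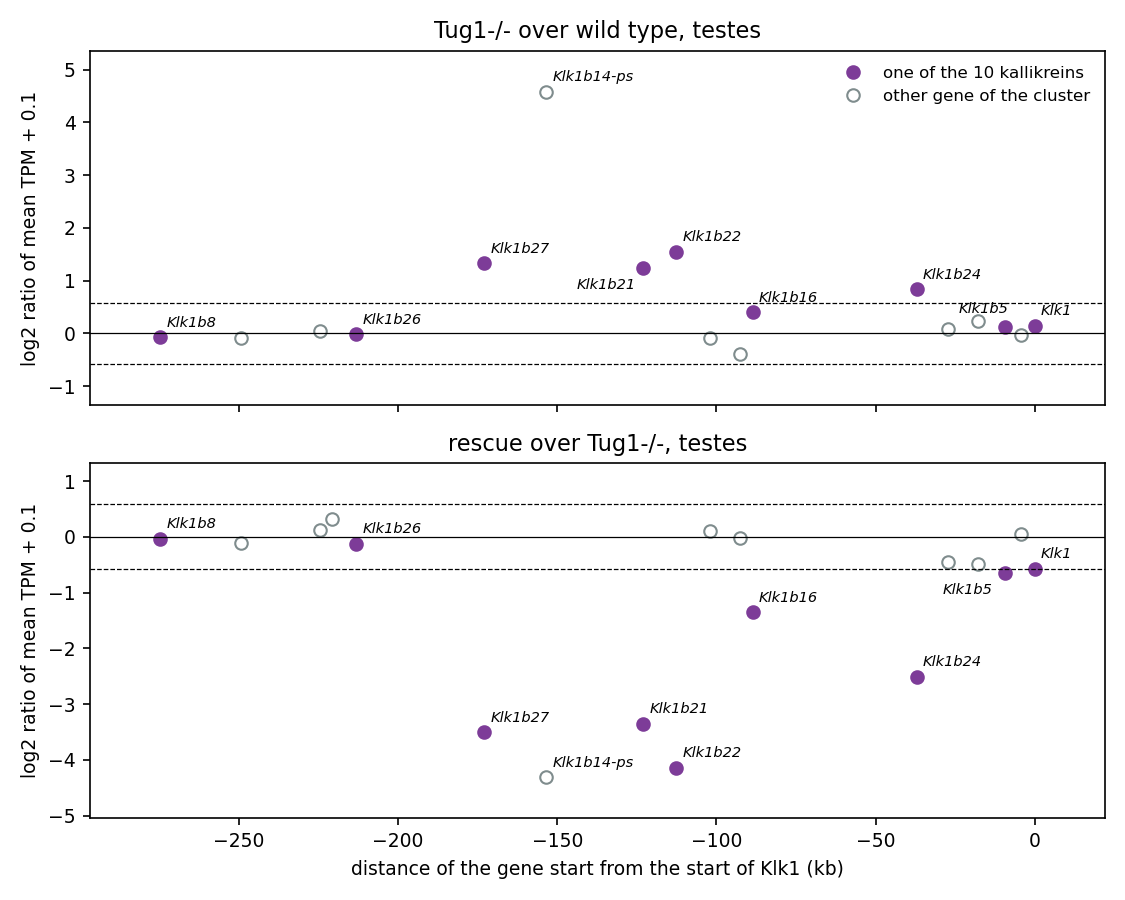
Log2 ratio of mean TPM plus 0.1 against the distance of each gene's start from that of Klk1 in kb, for Tug1-/- over wild type (top) and rescue over Tug1-/- (bottom). Filled points are the kallikreins described, open points other genes of the cluster and dashed lines a fold of 1.5. Genes under 1 TPM in both groups or listed at 0 in either are left out, Klk1b11 among them. From Klk1b27 to Klk1b24 the kallikreins lie above 0 in the upper panel and below -1 in the lower one.

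Relatives outside the 10 mostly held level. Klk1b9 was at 38.5 TPM in wild-type, 36.2 TPM in Tug1-/- and 33.4 TPM in rescue testes. Klk1b3 was at 8.12, 8.59 and 6.24 TPM. The pseudogenes Klk1b7-ps (33.8, 34.6 and 34.6 TPM) and Klk2-ps (6.53, 6.30 and 7.17 TPM) were similar in all groups. Of 19 other Klk genes on the chromosome, 7 reached 1 TPM in wild-type or Tug1-/- testes, and Klk1b14-ps was the 1 above the fold. Klk8 and Klk6, which are not Klk1b genes, were at most at 0.185 and 0.0996 TPM in testes and peaked elsewhere, Klk8 in MEFs (37.5 TPM in wild type) and Klk6 in brain (36.8 TPM). An antisense gene, Gm44756, overlaps Klk1b8 (0.573 to 0.776 TPM), and Gm10109 overlaps Klk1 on the other strand (2.25 to 2.34 TPM). Strand was not stated for the counting, so reads of these pairs cannot be told apart, and the overlapping genes are low beside Klk1b8 but not beside Klk1.

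Markers of other cells moved with these groups as well, and their part in the kallikrein values was not tested. In whole testes, more cells of a type and more RNA per cell cannot be told apart. Counts of list genes follow the same rule of 1.5-fold and 1 TPM. Of 12 Leydig cell genes, 3 were more than 1.5-fold higher in Tug1-/- than in wild-type testes and 0 lower, with a median log2 ratio of 0.43. Their summed level was 1137 TPM in wild-type, 1530 TPM in Tug1-/- and 1032 TPM in rescue testes. Insl3, a Leydig cell hormone, was at 56.9, 143.8 and 65.5 TPM. Star, which brings cholesterol into mitochondria, was at 41.5, 68.7 and 44.5 TPM, and Cyp11a1, which makes the first steroid from it, at 43.2, 75.5 and 83.0 TPM. Against Tug1-/- testes, 4 of the 12 were lower in rescue testes and 0 higher, with a median of -0.16. The most abundant of the list were Ptgds, a prostaglandin synthase (381, 467 and 169 TPM), Cyp17a1 of androgen synthesis (235, 341 and 315 TPM) and the steroid dehydrogenase Hsd3b6 (136, 147 and 67.1 TPM). Ptgds and Hsd3b6 were lower in rescue than in wild-type testes, as were the 5 kallikreins, whereas Cyp11a1 and the receptor Lhcgr (6.33, 9.46 and 9.93 TPM) were higher. All 12 Leydig genes were thus well above 0 in every group, between 6.33 and 467 TPM.

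As a list, epididymal genes differed most between wild-type testes and both other groups, with median log2 ratios of -6.30 for Tug1-/- and -9.55 for rescue over wild type. The summed level of 12 genes was 3612 TPM in wild-type, 816 TPM in Tug1-/- and 14.7 TPM in rescue testes. Of the 12, 11 were lower in Tug1-/- than in wild-type testes, and all 12 were lower in rescue than in wild-type testes. Lcn8, a lipocalin of the epididymis, was at 799, 0.244 and 0.160 TPM, and Lcn5 at 680, 0.0155 and 0.132 TPM. Crisp1, a secreted epididymal protein, was the exception, at 427 TPM in wild-type, 760 TPM in Tug1-/- and 0.348 TPM in rescue testes, the same order of groups as Klk1b27, Klk1b21, Klk1b22 and Klk1b24. Each of the others had its highest mean in wild-type testes. Whether RNA of epididymis in some libraries has a part in the kallikrein means was not tested, since the tables give no value per library.

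**Figure D3:**
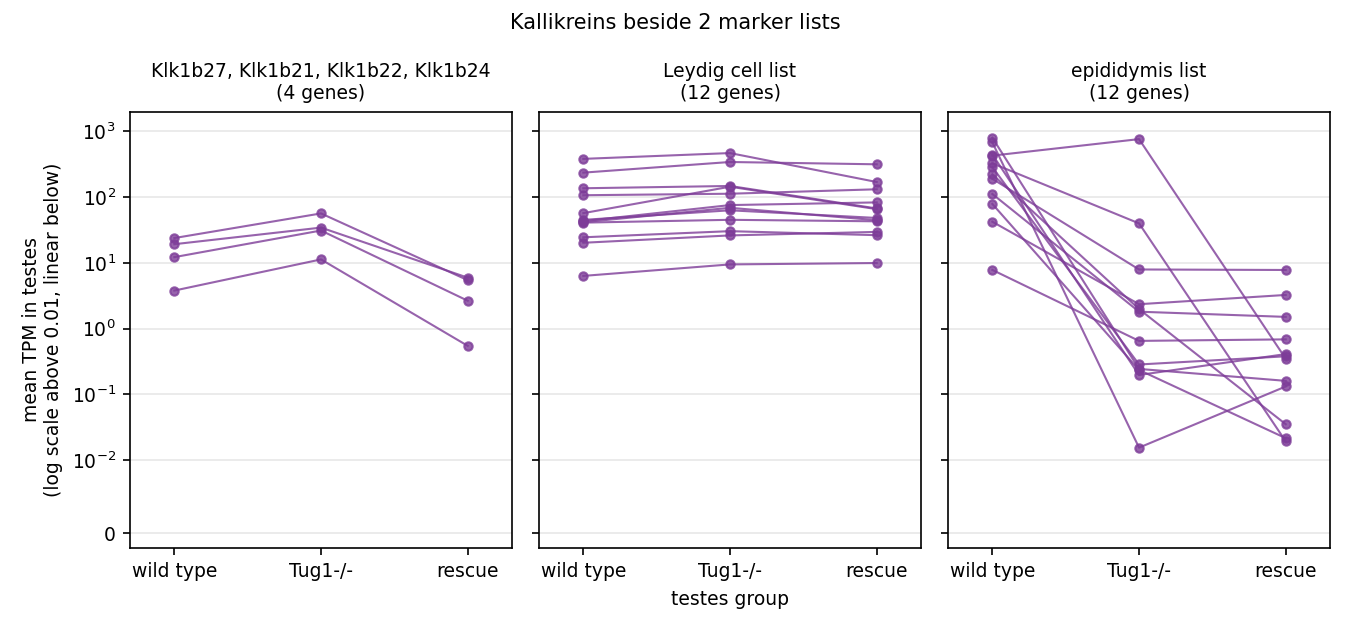
Mean TPM in wild-type, Tug1-/- and rescue testes for Klk1b27, Klk1b21, Klk1b22 and Klk1b24 (left), 12 Leydig cell genes (middle) and 12 epididymis genes (right), each line 1 gene, on a scale that is logarithmic above 0.01 and linear below. The kallikrein lines peak in Tug1-/- and are lowest in rescue testes, the Leydig lines vary within a narrower range, and 11 of the 12 epididymis lines drop from wild type to Tug1-/-.

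Markers of the submandibular gland, the organ richest in kallikreins, were low in testes. Of 14 genes, 9 were listed and 4 reached 1 TPM, led by Amy1 (16.4, 23.1 and 14.6 TPM), Dcpp1 (2.58, 3.16 and 2.80 TPM) and Egf (2.16, 1.79 and 1.54 TPM). Of these 4, 1 was higher in Tug1-/- than in wild-type testes, and 2 were lower in rescue than in Tug1-/- testes. Ren1 (0.924, 1.58 and 0.947 TPM) was counted in both. It reaches 1 TPM only in Tug1-/- testes, so it could only be counted in these directions. Summed levels were 22.8, 30.3 and 20.3 TPM. Sertoli cell genes, 12 in all, gave 0 above or below the fold between wild-type and Tug1-/- testes (median log2 ratio 0.35) and 5 higher in rescue than in wild-type testes. Clu, their most abundant gene, was at 848, 809 and 818 TPM, Amhr2 at 210, 313 and 327 TPM and Cldn11 at 94.2, 137.8 and 148.0 TPM. Of 10 macrophage genes, 1 was higher in Tug1-/- and 4 in rescue than in wild-type testes, with Lyz2 at 37.0, 52.5 and 41.7 TPM, C1qb at 22.2, 27.2 and 33.5 TPM and Mrc1 at 20.8, 27.4 and 28.7 TPM. The share of all genes higher in rescue than in wild-type testes was not computed, so nothing is read from these rescue counts. For 10 elongating spermatid genes the count was 0 in each comparison, with median log2 ratios between -0.12 and -0.02. Prm2 was at 12768, 11663 and 11685 TPM and Tnp2, which replaces histones before the protamines, at 11259, 11304 and 10727 TPM.

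The partners of kallikrein in the kinin pathway showed little of this pattern. Of 15 genes, 12 reached 1 TPM, and their median log2 ratio was 0.11 for Tug1-/- over wild type and -0.08 for rescue over Tug1-/-. The kininogens, from which kinins are cut, were nearly missing, with Kng1 at 0.195, 0.179 and 0.107 TPM and Kng2 at 0.461, 0.386 and 0.474 TPM. The kinin receptor Bdkrb2 was at 1.63, 1.67 and 1.74 TPM, and Bdkrb1 at 1.07, 0.897 and 0.980 TPM. Ace, which degrades kinins and has a form of its own in sperm cells, was at 351, 332 and 319 TPM. Agt, the precursor of angiotensin, was at 256, 341 and 232 TPM. The protease inhibitor Serpina5 was higher in Tug1-/- (151 TPM) and rescue (149 TPM) than in wild-type testes (97.8 TPM), and the carboxypeptidase Cpn1 was lower in Tug1-/- (5.18 TPM) than in wild-type testes (7.90 TPM). Cpm, another carboxypeptidase acting on kinins, was at 1.02, 1.27 and 0.524 TPM, lower in rescue than in both other groups.

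Genes that answer to androgens or serve them were mixed. Of 12 names, 11 were listed and all 11 reached 1 TPM, Spinlw1 being an older name of Eppin. In Tug1-/- over wild-type testes 2 were higher (Shbg and Azgp1) and 1 lower (Srd5a2), with a median log2 ratio of 0.02. Eppin, an inhibitor on the sperm surface, was at 110, 131 and 135 TPM, Rhox5, a homeobox gene that androgen induces in Sertoli cells, at 35.7, 48.7 and 61.1 TPM, and Fkbp5 at 33.9, 34.5 and 31.8 TPM. Azgp1 (0.777, 3.98 and 0.182 TPM) had the same order of groups as Klk1b27, Klk1b21, Klk1b22 and Klk1b24. It reaches 1 TPM only in Tug1-/- testes, so it could only be counted as higher there. Srd5a2, which makes dihydrotestosterone, was at 17.8 TPM in wild-type, 1.88 TPM in Tug1-/- and 1.77 TPM in rescue testes, highest in wild type as were 11 of the 12 epididymal genes. Azgp1 and Srd5a2 were singled out after their values were seen.

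Outside the testes, 7 of the 10 members were listed in at least 1 of 7 tissues (brain, eyes, heart, liver, MEFs, prostate and spleen), each by mean TPM of wild-type and Tug1-/- samples. There were 3 libraries per genotype, apart from 2 for Tug1-/- prostate and from brain, whose libraries are not among the samples listed. Klk1b8, Klk1b16 and Klk1b21 were listed in testes only, and MEFs listed 0 members. The authors' mean normalized count over both genotypes stands beside these values, as the closest measure of how many reads lie behind them.

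Klk1b22 was listed in 5 of the 7 other tissues, the most of any member. Its wild-type mean was 0 in 4 of them, so that every wild-type library of these 4 was at 0. A gene is listed only where a library holds at least 3 reads. These 4 listings thus rest on Tug1-/- reads and could only show a higher Tug1-/- mean, so nothing is read from their number. In prostate Klk1b22 was listed at 0 in wild-type samples and at 20.1 TPM in Tug1-/-, with a mean normalized count of 89.6. In eyes it was at 0 and 5.54 TPM, with a mean normalized count of 33.3. Prostate and eyes thus held a clear level in the Tug1-/- mean alone. In spleen it was at 0.0266 TPM in wild-type samples and 1.19 TPM in Tug1-/-, with a mean normalized count of 8.28. In heart (0 and 0.295 TPM) and liver (0 and 0.135 TPM) the mean normalized counts were 2.33 and 1.04, which is few reads. Among 33195 genes listed in the 7 tissues, Klk1b22 was the 1 gene with a wild-type mean under 0.05 TPM in every tissue listing it and a Tug1-/- mean of at least 1 TPM in at least 2 of them, a criterion set after the values were seen. In testes its wild-type mean was not 0 but 3.79 TPM.

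By the rule used for testes, 1 of 1 member was higher in Tug1-/- prostate, where 5.32% of 15547 genes were. In eyes it was 1 of 2, against 3.19% of 19709 genes, and in spleen 3 of 4, against 5.4% of 17260 genes. Klk1b22 in all 3 tissues and Klk1b5 in spleen reach 1 TPM only through the Tug1-/- group, so they could only be counted as higher, and nothing is read from these shares. In each of these tissues 0 members were lower, and in brain, heart, liver and MEFs 0 members reached 1 TPM. The other member at 1 TPM in eyes was Klk1b26, at 1.13 TPM in wild-type samples and 1.52 TPM in Tug1-/-, a ratio of 1.31. The same gene was at 0.554 and 0.904 TPM in heart. In prostate Klk1b11 was listed at 0 and 0.181 TPM, with a mean normalized count of 0.817.

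Spleen listed 6 members, the most of any tissue but testes. Klk1 was at 11.8 TPM in wild-type samples and 104.8 TPM in Tug1-/-, a ratio of 8.81, with a mean normalized count of 966. Klk1b5, the closest relative of Klk1 in coding sequence, was at 0.00856 and 2.80 TPM, and 5.03% of its windows of a read's length also occur in other genes, Klk1 among them. Klk1b27, in contrast, was at 4.56 and 5.10 TPM, a ratio of 1.12. Klk1b11 was at 0.108 and 0.864 TPM, and Klk1b24 at 0 and 0.126 TPM. Pancreatic genes moved with Klk1 here: all 14 of a list written after the tables were seen had a higher mean in Tug1-/- spleen, between 83.2 and 1383 times the wild-type mean, with a summed level of 17.7 TPM in wild-type samples and 10449 TPM in Tug1-/-. Pancreas expresses Klk1, and the part of these genes in the spleen values was not tested. In eyes the sums of the same list were 1.87 and 1.92 TPM, while Klk1b22 went from 0 to 5.54 TPM. In prostate they were 2528 and 2745 TPM, nearly all of it Rnase1.

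The remaining values outside the testes were low. Klk1 was between 0.0867 and 0.191 TPM in brain, eyes and liver of either genotype. Klk1b27 was at 0.505 and 0.239 TPM in wild-type and Tug1-/- eyes, and Klk1b5 at 0 and 0.0574 TPM. Submandibular gland markers stood as follows in the 2 tissues where Klk1b22 was clearest, and their part was not tested. In eyes 7 of the 14 were listed, with sums of 124 and 113 TPM in wild-type and Tug1-/- samples, of which Amy1 made up 113 and 99.0 TPM. Bpifa2, a protein of saliva, was at 3.67 and 6.58 TPM there, and it was the 1 of 4 at 1 TPM or more that was higher in Tug1-/-, with 0 lower. In prostate 7 were listed, with sums of 21751 and 17145 TPM, of which Ren1, the gene of renin, made up 21513 and 16904 TPM. Lpo, a secreted peroxidase, was at 2.52 and 8.18 TPM, and it was the 1 of 5 that was higher in Tug1-/- prostate, with 0 lower. By tissue, the highest wild-type mean of Klk1b8, Klk1b11, Klk1b16, Klk1b21, Klk1b22, Klk1b24, Klk1b26, Klk1b27 and Klk1b5 was in testes, and that of Klk1 was in spleen.

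**Figure D4:**
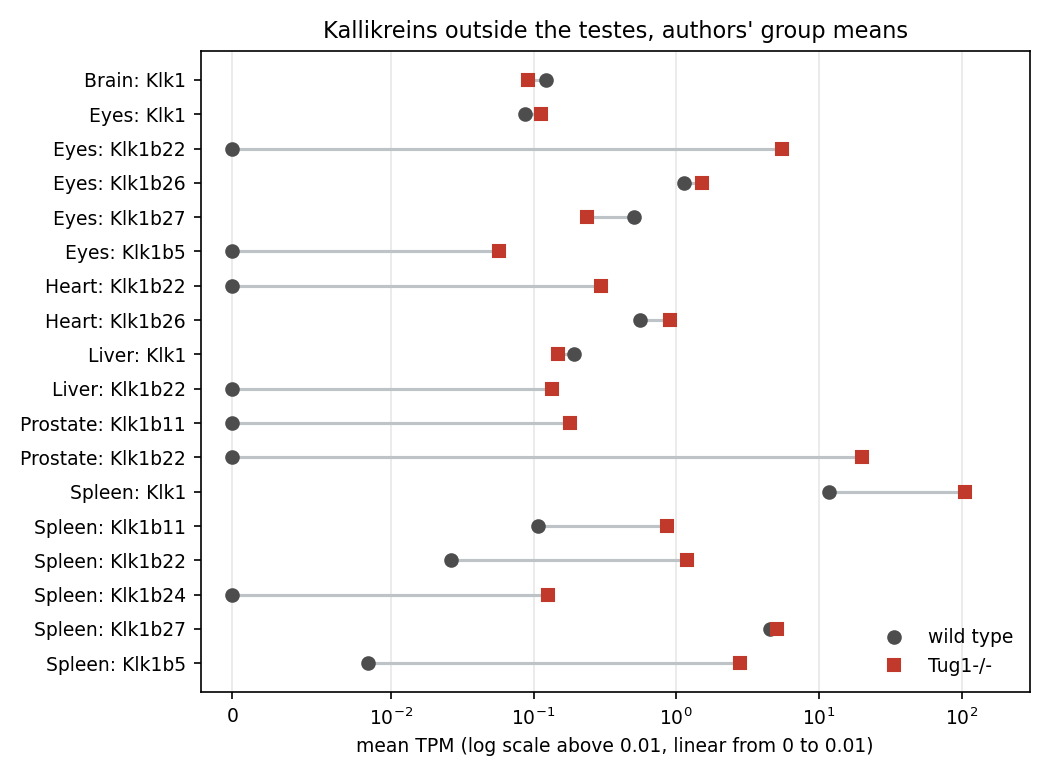
Mean TPM of each member in each tissue other than testes that lists it, for wild type (circles) and Tug1-/- (squares), on a scale that is logarithmic above 0.01 and linear from 0 to 0.01. Klk1b22 sits at 0 in wild-type eyes, heart, liver and prostate and between 0.135 and 20.1 TPM in Tug1-/-, and Klk1 and Klk1b5 stand apart in spleen.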

How the data were processed

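Libraries were made from poly(A) RNA and sequenced from both ends. The authors mapped the reads to GRCm38 using STAR and assigned those with a unique position to GENCODE vM16 genes using featureCounts. Genes that had under 3 reads in each library were dropped, and mean TPM values per group were deposited. For organs other than testes the deposited tables also hold a mean normalized count over both genotypes (a signal scaled by size factor). The tables further hold the authors' fold changes, standard errors, statistics and p-values, which were not used. Testes of F1 hybrid mice (6 samples) were not analysed here. The members and gene lists were chosen with earlier results of these data known.

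From mean TPM plus 0.1, log2 ratios were computed. A gene was counted as higher or lower at a ratio above 1.5 with at least 1 TPM in either group, and the same rule over all genes gave the background shares. No test was run, since the tables give no value per sample, and depth per sample is unknown. Genes named are the 10 members, Tug1, the 6 other Klk genes with the highest mean in testes or any other tissue, the 3 most abundant genes of each list and the 5 genes of most similar pattern, and all others were picked after their values were seen or are further members of a list. GENCODE vM21 gave exons and transcripts, with gene coordinates equal to those in the tables for all 10 members. Alternatives were other pseudocounts, minimums and folds, rescaled means, and sums over other gene sets. The counting rule was also run on wild-type means changed by a known fold without noise, which checks its arithmetic only. Python 3.11.15, pandas 2.3.3, numpy 2.4.6 and biopython were used.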

Additional observations from a re-analysis of the deposited data

How the results depend on the processing

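Every count and ratio rests on group means, so leaving out single replicates could not be run, and no value here carries an error. No paired analysis was possible because the tables hold no value per sample. In testes, pseudocounts of 1 and 0.01 TPM, no minimum, a minimum of 5 TPM, a fold above 2 and means rescaled by the median ratio kept the number of members higher in Tug1-/- than wild-type testes at 3 or 4 and the number lower in rescue than Tug1-/- testes at 5 or 6. The number lower in rescue than wild-type testes was 3 with a minimum of 5 TPM, since fewer genes are then counted, and 4 or 5 otherwise. In other tissues no minimum raised the number of members higher in Tug1-/- to 5 in spleen, 2 in eyes and 2 in prostate, by adding low members. Klk1b5 in eyes, Klk1b11 in prostate and Klk1b24 in spleen were at 0 in wild type, so they could only be counted as higher. In eyes Klk1b27, at 0.505 and 0.239 TPM, was then lower by more than the fold. No share over all genes was computed for this setting. Without Klk1 and Klk1b5, an alternative chosen after seeing the data, the number in spleen was 1. Without Klk1b8 the ratio of summed TPM was 1.82 for Tug1-/- over wild type and 0.450 for rescue over wild type, against 1.28 and 0.751 with it. Of 60 ratios of single members under a pseudocount of 1 TPM or rescaled means, 57 stayed on the same side of the fold, and the exceptions were Klk1b11 under both and Klk1b5 under a pseudocount of 1 TPM, all for rescue over Tug1-/-. No ratio past the fold changed sign. Rescaling shifted log2 ratios by 0.03 for Tug1-/- over wild type and by 0.04 for rescue over wild type.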

Other observations

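Few genes of the testes table shared the pattern of Klk1b14-ps and Gm45197 in the kallikrein cluster. Of 34865 genes, 5 had a mean under 0.05 TPM in wild-type, under 0.1 TPM in rescue and at least 1 TPM in Tug1-/- testes, limits set after the values were seen, and 2 of the 5 were these pseudogenes. The others were Svs1, a seminal vesicle protein gene (0.0377, 1.95 and 0.0275 TPM in wild-type, Tug1-/- and rescue testes), Gm44223 (0, 1.53 and 0 TPM) and 9230019H11Rik (0.00650, 3.72 and 0 TPM). Of the genes within 1 Mb of the cluster, 1 passed the fold in both comparisons: Mybpc2, a muscle myosin-binding protein gene picked for this, was at 0.350 TPM in wild-type, 1.49 TPM in Tug1-/- and 0.316 TPM in rescue testes.

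Other Klk genes had levels of their own outside the testes. Klk1b4, named after its values were seen, was at 4.92 and 6.88 TPM in wild-type and Tug1-/- liver, where Klk1 was at 0.191 and 0.148 TPM. Klk8 was at 31.0 and 30.3 TPM in spleen and at 37.5 and 30.7 TPM in fibroblasts, and Klk6 at 27.6 and 35.5 TPM in eyes.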
